A study of Mus musculus with 35 samples.

Results

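Monocyte-attracting chemokines and their receptors were followed here as 10 genes of the 21203 in the deposited table, taken by gene name: the chemokines Ccl2, Ccl7, Ccl12, Ccl8, Ccl3, Ccl4, Ccl6 and Ccl9 and the receptors Ccr2 and Ccr1. Chemokines are small secreted proteins that draw leukocytes along a gradient, and the CC family acts through G protein-coupled receptors on the arriving cells. CCR2 is the receptor through which inflammatory monocytes leave the bone marrow and enter injured brain, whereas CCR1 is carried by monocytes, macrophages and neutrophils. Resident microglia, infiltrating monocytes, astrocytes and endothelial cells can all make CC chemokines after brain injury.

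RNA-seq was done on 35 male C57BL/6N mice, 1 library per mouse, of which the authors excluded 1, so that values of 34 were analysed. The mice were 8 to 9 weeks old when the experiments began. Sham mice went through the procedure without the impact and received no injection, and all other mice had a closed head injury followed on day 5 by an injection into the left hippocampus of PBS, MSCs or IL-4 MSCs. MSCs are mesenchymal stromal cells, here a commercial stock from C57BL/6N mice, and IL-4 MSCs are the same cells transfected with synthetic IL-4 mRNA using Viromer Red. Injected groups were collected at 1 week post-injury (wpi), 2 days after treatment, or at 3 wpi, 16 days after treatment. A difference from Sham thus covers injury and injection together, and RNA of the injected mouse cells cannot be told apart from that of the host. No MSCs transfected with a control mRNA were sequenced. A difference of IL-4 MSCs from MSCs thus covers IL-4 and the transfection together, and one from PBS covers the cells as well. There were 5 mice per group, apart from 4 analysed for PBS at 3 wpi, and the Sham group joined mice of both weeks. The tissue is labelled left cortex and was cut around the injection site. The 8 cortical neuron markers summed to 1440 to 1910 CPM in every library. The 13 striatum markers summed to 1749 to 2923 CPM in 4 of the 5 IL-4 MSC mice at 3 wpi. They summed to at most 1066 CPM in the fifth of them and in every mouse of the other groups. Striatum sums also differed below that level. At 1 wpi they were 366.5 to 509.6 CPM with PBS and 525.6 to 1049 CPM with IL-4 MSCs, without overlap. In Sham they were 276.1 and 290.7 CPM in the mice of 1 wpi and 838.6 to 1046 CPM in those of 3 wpi. Libraries held between 29838423 and 41554322 estimated counts, and the chi-square per gene between mice of 1 group was 3.2 to 50.1 over 66 pairs, above counting error in each. Mice are named below by the number that ends their title, from 0 to 4.

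The genes lie in 3 clusters of the mouse genome (GRCm38). Ccl2, Ccl7, Ccl12 and Ccl8 span 81229 bases of chromosome 11, between 82035571 and 82116799, together with Ccl11. Ccl9, Ccl6, Ccl3 and Ccl4 span 91765 bases of the same chromosome, between 83572919 and 83664683. Ccr1 and Ccr2 lie on chromosome 9 between 123962124 and 124113557, with Ccr3 between them.

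Promoter sequences from RefSeq (GRCm38.p6) were at hand for 7 of the 10 genes: Ccl12, Ccl8, Ccl9, Ccl6, Ccl3, Ccr1 and Ccr2. The 250 bases before the start are shown for Ccl8 and Ccl12, the neighbours with the largest and smallest difference between IL-4 MSCs and PBS of their cluster, and for Ccl6 and Ccl9, the neighbours that were raised together. They read 5′ to 3′ on the gene's strand, which is plus for Ccl8 (chr11:82114935-82115184) and Ccl12 (chr11:82101595-82101844) and minus for Ccl6 (chr11:83593088-83593337) and Ccl9 (chr11:83578637-83578886). Capitals mark matches, on either strand, to TATAAA, to the NF-kB letters GGG and TTCC with any 3 bases between, or to the STAT letters TTC and GAA with any 3 or 4 bases between, the wider of which is the spacing bound by STAT6.
Ccl8: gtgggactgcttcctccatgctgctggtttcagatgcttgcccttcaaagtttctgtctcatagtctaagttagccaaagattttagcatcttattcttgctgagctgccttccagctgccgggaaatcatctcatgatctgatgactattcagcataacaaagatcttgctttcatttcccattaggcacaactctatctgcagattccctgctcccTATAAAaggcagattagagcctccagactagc
Ccl12: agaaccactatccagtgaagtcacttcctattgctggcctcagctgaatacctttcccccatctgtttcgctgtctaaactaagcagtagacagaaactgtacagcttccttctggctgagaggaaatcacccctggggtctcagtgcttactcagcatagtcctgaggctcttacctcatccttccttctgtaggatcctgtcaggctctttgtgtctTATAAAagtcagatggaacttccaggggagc
Ccl6: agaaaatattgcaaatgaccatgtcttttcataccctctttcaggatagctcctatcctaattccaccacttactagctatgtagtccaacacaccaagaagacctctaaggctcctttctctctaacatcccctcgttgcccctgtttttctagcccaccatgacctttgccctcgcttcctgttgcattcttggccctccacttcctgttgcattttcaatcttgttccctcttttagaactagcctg
Ccl9: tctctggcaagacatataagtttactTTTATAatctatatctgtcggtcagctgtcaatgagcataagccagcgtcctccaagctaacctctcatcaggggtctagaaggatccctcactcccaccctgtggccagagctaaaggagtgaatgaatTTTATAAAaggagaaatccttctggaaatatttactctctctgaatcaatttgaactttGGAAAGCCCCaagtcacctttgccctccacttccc
TATAAA stood between 32 and 27 bases before the start in Ccl8 and between 31 and 26 in Ccl12, and it overlapped its reverse complement in Ccl9. Among the 32851 promoters of the same length, 12.4% held TATAAA. The NF-kB letters matched in Ccl9, against 4.65% of all promoters, and neither STAT spacing matched in any of the 7, against 7.02% for the shorter and 5.85% for the longer. The longest run shared by the promoters of Ccl6 and Ccl9 was 13 bases.

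Levels are given as CPM (the gene's estimated counts scaled by the library total) where 1 gene is compared between mice, and as the authors' TPM, which accounts for transcript length, where genes are compared with each other. Differences are log2 fold changes with their standard error from edgeR's quasi-likelihood test over 17131 genes, with Benjamini-Hochberg adjusted p-values, and a gene was called at an adjusted p under 0.05. All 10 genes passed the filter on low counts.

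**Figure D1:**
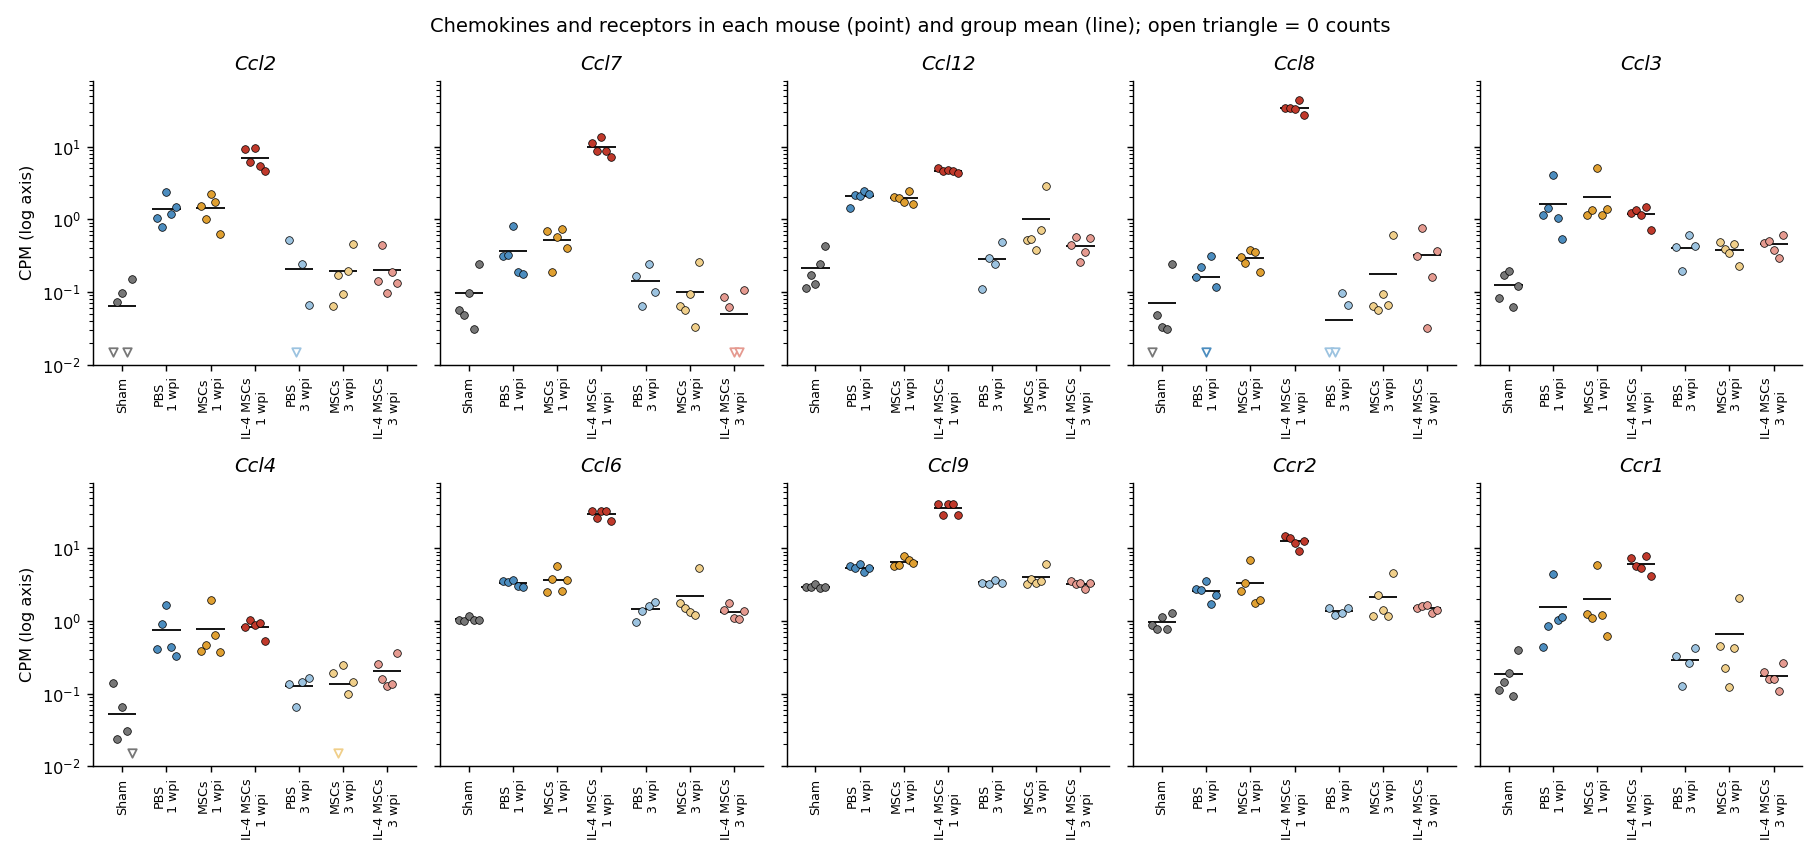
CPM of each of the 10 genes (log axis) in every mouse of the 7 groups; the line is the group mean, and open triangles at the bottom are mice with 0 counts. In the 1 wpi IL-4 MSC mice Ccl8 lies between 27.6 and 43.6 CPM and in no other mouse above 0.754 CPM, whereas Ccl3 lies between 0.712 and 1.46 CPM, within the range of the PBS mice.

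At 1 wpi nearly all of these genes were higher in injured than in Sham mice, whatever was injected. With PBS as with MSCs 9 of the 10 were called higher, Ccl8 being the exception in both, and with IL-4 MSCs all 10 were. These comparisons share the Sham mice. Over all genes tested, 8.73% were called higher with PBS, 11.0% with MSCs and 18.4% with IL-4 MSCs. The median log2 difference of the 10 genes from Sham was 2.44 for PBS, 2.75 for MSCs and 4.54 for IL-4 MSCs, while that of all genes lay between -0.02 and -0.01. IL-4 MSCs exceeded PBS in 8 of the 10 genes, where 11.2% of all genes were called higher, and MSCs in 7, where 7.66% were; both comparisons share the IL-4 MSC mice. Fewer cells of a type and less RNA per cell cannot be told apart in bulk tissue.

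The 8 ligands together reached a summed level of 6.89 ± 1.76 TPM (SD, n = 5) in Sham. At 1 wpi it was 38.1 ± 10.9 TPM (n = 5) with PBS and 41.1 ± 12.8 TPM (n = 5) with MSCs. With IL-4 MSCs the sum was 380.5 ± 52.8 TPM (n = 5), and its lowest mouse, at 305.4 TPM, stood above every mouse of the other groups. Ccl8 made up 57.0% ± 4.53 (n = 5) of this sum, against 3.10% ± 2.12 with PBS and 4.70% ± 0.861 with MSCs. In both of these groups Ccl12 held the largest mean share, with 34.1% ± 8.46 and 30.0% ± 8.04, and in Sham Ccl9 did, with 32.2% ± 6.25. By 3 wpi the sums were 9.93 ± 2.09 TPM (n = 4) in PBS, 16.6 ± 12.1 TPM (n = 5) in MSCs and 12.5 ± 3.93 TPM (n = 5) in IL-4 MSCs.

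**Figure D2:**
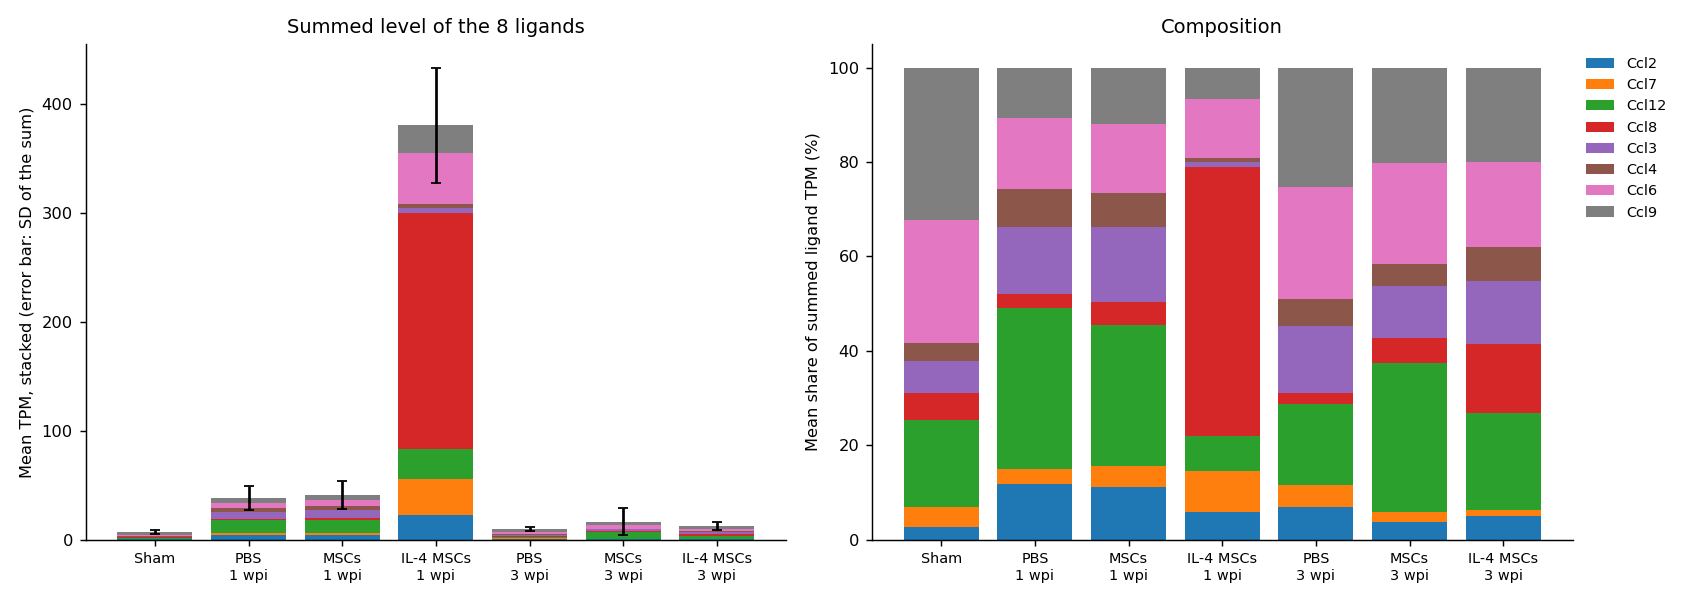
Stacked mean TPM of the 8 ligands per group (left; the bar is the SD of the sum over mice) and their mean shares of the sum in percent (right). At 1 wpi Ccl8 takes 57.0% of the ligand TPM in IL-4 MSCs and 3.10% in PBS.

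Ccl2 encodes MCP-1, the best known ligand of CCR2. Its level in the 5 Sham mice was 0, 0.0722, 0.0974, 0 and 0.153 CPM, which is 0 to 5 counts. In PBS at 1 wpi the mice had 1.05, 0.785, 2.37, 1.20 and 1.47 CPM, in MSCs 1.53, 1.02, 2.23, 1.74 and 0.626 CPM, and in IL-4 MSCs 9.18, 6.11, 9.66, 5.34 and 4.69 CPM. Each injured group stood clear of Sham, the ranges of PBS and MSCs overlapped, and all IL-4 MSC mice stood above both. The log2 difference from Sham was 4.32 ± 0.62 (SE) for PBS (adjusted p = 7.21e-06), 4.37 ± 0.62 for MSCs (adjusted p = 3.8e-06) and 6.63 ± 0.57 for IL-4 MSCs (adjusted p = 3.33e-11). IL-4 MSCs exceeded PBS by 2.32 ± 0.38 (adjusted p = 2.94e-05) and MSCs by 2.26 ± 0.38 (adjusted p = 5.32e-05), a fold of 4.98 and 4.78.

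Ccl7 encodes MCP-3, which also acts on CCR2. Sham mice had between 0.0307 and 0.244 CPM. PBS mice at 1 wpi had 0.317, 0.319, 0.799, 0.190 and 0.177 CPM, MSC mice 0.694, 0.186, 0.571, 0.741 and 0.407 CPM, and IL-4 MSC mice 11.2, 8.76, 13.6, 8.60 and 7.30 CPM. The ranges of PBS and MSCs overlapped each other and Sham, and the lowest IL-4 MSC mouse stood well above all of them. IL-4 MSCs exceeded PBS by 4.74 ± 0.36 on the log2 scale, a fold of 26.8 (adjusted p = 1.73e-11), and MSCs by 4.21 ± 0.34 (adjusted p = 1.07e-10). From Sham, PBS differed by 1.87 ± 0.56 (adjusted p = 0.0213) and MSCs by 2.4 ± 0.53 (adjusted p = 0.00121), and without Sham mouse 4 these were 2.53 and 3.07. The PBS call depended on single mice: without PBS mouse 2 the difference was 1.38 (adjusted p = 0.117), and without Sham mouse 0, 1 or 3 it was 1.66 to 1.74 (adjusted p = 0.0555 to 0.0635).

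Ccl12, the mouse chemokine MCP-5, is a further ligand of CCR2. It was at 0.111 to 0.427 CPM in Sham, and at 1 wpi at 1.43 to 2.43 CPM in PBS, 1.60 to 2.42 CPM in MSCs and 4.27 to 5.06 CPM in IL-4 MSCs. PBS and MSCs lay over each other and neither overlapped Sham or IL-4 MSCs. From Sham the log2 difference was 3.22 ± 0.42 for PBS (adjusted p = 1.69e-06), 3.11 ± 0.42 for MSCs (adjusted p = 2.13e-06) and 4.35 ± 0.41 for IL-4 MSCs (adjusted p = 2.78e-10). IL-4 MSCs exceeded PBS by 1.14 ± 0.31 (adjusted p = 0.0105) and MSCs by 1.24 ± 0.32 (adjusted p = 0.00782), the smallest called difference of the 4 genes in this cluster.

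Ccl8 encodes MCP-2, a member of the same family whose mouse protein is known to act on CCR8. Its counts in Sham were 0 to 8, in PBS at 1 wpi 0 to 10 and in MSCs 6 to 14, against 929 to 1405 in IL-4 MSCs. In CPM, PBS mice had 0.158, 0.221, 0, 0.316 and 0.118, MSC mice 0.306, 0.247, 0.380, 0.354 and 0.188, and IL-4 MSC mice 33.7, 33.7, 32.6, 43.6 and 27.6. The PBS and MSC mice overlapped the highest Sham mouse, which was mouse 4 at 0.244 CPM. IL-4 MSCs stood 7.63 ± 0.42 above PBS on the log2 scale, a fold of 198 (adjusted p = 1.21e-14), and 6.81 ± 0.38 above MSCs, a fold of 112 (adjusted p = 2.93e-14). Against Sham, PBS differed by 1.17 ± 0.85 (adjusted p = 0.423) and MSCs by 2.00 ± 0.76 (adjusted p = 0.0651), neither of which passed the test. Without Sham mouse 4 the difference of MSCs was 3.18 (adjusted p = 0.0155). In TPM, Ccl8 averaged 217.2 ± 37.7 (SD, n = 5) in IL-4 MSCs, and the ratio of Ccl8 to Ccl2 in single mice was 6.59 to 16.1 there against 0 to 0.55 in PBS and 0.332 to 0.586 in MSCs.

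Ccl3 and Ccl4 encode MIP-1α and MIP-1β, chemoattractants of monocytes and lymphocytes, of which CCL3 acts on CCR1. They were higher than in Sham in all 3 injured groups, and no difference between treatments passed the test. Ccl3 was at 0.0615 to 0.195 CPM in Sham. At 1 wpi PBS mice had 1.14, 1.45, 4.06, 1.04 and 0.530 CPM, MSC mice 1.14, 1.33, 5.13, 1.13 and 1.38 CPM, and IL-4 MSC mice 1.21, 1.33, 1.13, 1.46 and 0.712 CPM. The 3 injured groups overlapped throughout, apart from mouse 2 of PBS and mouse 2 of MSCs, which stood above all others. Ccl3 differed from Sham by 3.62 ± 0.54 for PBS (adjusted p = 1.22e-05), 3.92 ± 0.53 for MSCs (adjusted p = 2.13e-06) and 3.10 ± 0.56 for IL-4 MSCs (adjusted p = 3.77e-05). Without mouse 2 of its own group the difference was 2.97 for PBS and 3.21 for MSCs. IL-4 MSCs differed from PBS by -0.53 ± 0.41 (adjusted p = 0.429) and from MSCs by -0.82 ± 0.40 (adjusted p = 0.246), and without both of those mice by 0.13 (adjusted p = 0.807) and -0.12 (adjusted p = 0.858), so that the sign against PBS depended on them.

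Ccl4 was at 0 to 0.139 CPM in Sham. At 1 wpi it was at 0.324 to 1.66 CPM in PBS, 0.376 to 1.96 CPM in MSCs and 0.534 to 1.02 CPM in IL-4 MSCs, and the 3 ranges overlapped. From Sham it differed by 3.73 ± 0.66 for PBS (adjusted p = 0.000127), 3.76 ± 0.65 for MSCs (adjusted p = 7.61e-05) and 3.85 ± 0.65 for IL-4 MSCs (adjusted p = 1.59e-05). IL-4 MSCs differed from PBS by 0.12 ± 0.44 (adjusted p = 0.892) and from MSCs by 0.09 ± 0.44 (adjusted p = 0.947). Without Sham mouse 0 the differences from Sham were 4.50, 4.54 and 4.65, and without MSC mouse 2 that of MSCs was 3.04. The standard errors of Ccl3 and Ccl4 leave room for differences between treatments near 1 on the log2 scale. Without PBS mouse 0, 3 or 4 the Ccl4 difference from PBS lay between -0.05 and -0.01, and without MSC mouse 0, 1 or 4 that from MSCs lay between -0.08 and -0.03. In TPM, single mice had 1.06 to 1.27 times as much Ccl3 as Ccl4 in IL-4 MSCs, 1.29 to 2.25 times in PBS and 1.42 to 2.98 times in MSCs.

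**Figure D3:**
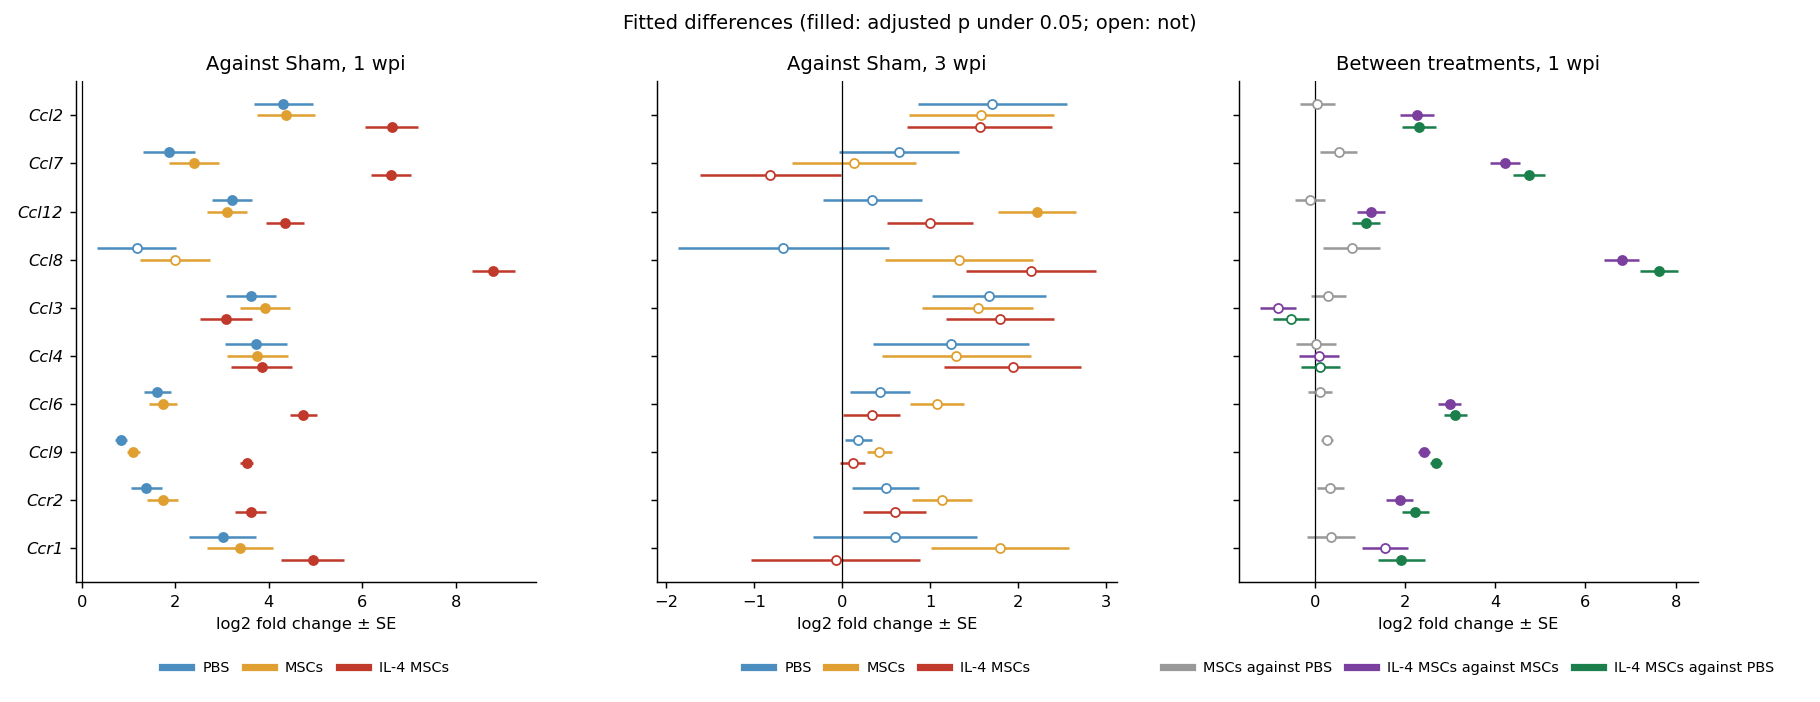
Log2 fold change ± SE of the 10 genes against Sham at 1 wpi (left), against Sham at 3 wpi (middle) and between treatments at 1 wpi (right); filled points passed the test at an adjusted p under 0.05. Between IL-4 MSCs and PBS at 1 wpi the points run from 7.63 for Ccl8 to -0.53 for Ccl3.

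Ccl6 and Ccl9 encode the mouse chemokines C10 and MIP-1γ, both ligands of CCR1, and in Sham they had the highest mean TPM of the 8 ligands, with 1.73 ± 0.098 for Ccl6 and 2.13 ± 0.094 for Ccl9 (SD, n = 5). Ccl6 was at 0.986 to 1.17 CPM in Sham, and at 1 wpi at 2.92 to 3.68 CPM in PBS, 2.53 to 5.71 CPM in MSCs and 24.0 to 32.8 CPM in IL-4 MSCs. Ccl9 was at 2.80 to 3.24 CPM in Sham, 4.76 to 6.05 CPM in PBS, 5.78 to 7.90 CPM in MSCs and 28.3 to 41.3 CPM in IL-4 MSCs. In both genes Sham lay lowest, PBS and MSCs overlapped above it, and IL-4 MSCs stood clear of all. Against PBS, IL-4 MSCs were 3.11 ± 0.26 higher in Ccl6, a fold of 8.65 (adjusted p = 1.1e-10), and 2.69 ± 0.13 higher in Ccl9, a fold of 6.47 (adjusted p = 6.17e-16). Against MSCs the differences were 3.00 ± 0.25 (adjusted p = 3.37e-10) and 2.43 ± 0.13 (adjusted p = 5.05e-15). From Sham, PBS differed by 1.62 ± 0.30 in Ccl6 (adjusted p = 0.000198) and by 0.84 ± 0.14 in Ccl9 (adjusted p = 4.7e-05). The estimated counts of Ccl9 were whole, within 0.01 counts, in 1 of the 34 libraries, so the authors' assignment divided some of its reads between similar genes and its level is less certain.

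Ccr2, the receptor of inflammatory monocytes, was at 0.773 to 1.31 CPM in Sham. At 1 wpi PBS mice had 2.79, 2.68, 3.58, 1.73 and 2.25 CPM, MSC mice 2.61, 3.35, 6.96, 1.75 and 1.96 CPM, and IL-4 MSC mice 14.7, 14.1, 11.8, 9.32 and 12.7 CPM. At this time no injured mouse overlapped Sham, and no IL-4 MSC mouse overlapped the other treatments. The Ccr2 level with IL-4 MSCs was above PBS by 2.23 ± 0.30, a fold of 4.69 (adjusted p = 1.23e-06), and above MSCs by 1.88 ± 0.29 (adjusted p = 1.89e-05). It differed from Sham by 1.39 ± 0.34 in PBS (adjusted p = 0.00493) and by 1.73 ± 0.34 in MSCs (adjusted p = 0.00031). Its estimated counts were whole in 0 of the 34 libraries, so here too reads were divided between similar genes.

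Ccr1, the receptor of CCL3, CCL6 and CCL9, was at 0.0922 to 0.397 CPM in Sham. PBS mice at 1 wpi had 0.443, 0.859, 4.38, 1.04 and 1.15 CPM, MSC mice 1.25, 1.08, 5.89, 1.22 and 0.626 CPM, and IL-4 MSC mice 7.34, 5.77, 5.32, 7.88 and 4.15 CPM. Mouse 2 of PBS and mouse 2 of MSCs reached the range of IL-4 MSCs, and the other mice of both groups did not. IL-4 MSCs exceeded PBS by 1.92 ± 0.52 (adjusted p = 0.00928), while the difference from MSCs, 1.55 ± 0.51, did not pass the test (adjusted p = 0.0528). Without PBS mouse 2 alone the difference from PBS was 2.79 (adjusted p = 0.000293). Without mouse 2 of both groups the 2 differences passed, at 2.76 (adjusted p = 1.39e-05) and 2.51 (adjusted p = 5.58e-05), and the difference from MSCs also passed without IL-4 MSC mouse 4, at 1.68 (adjusted p = 0.046), and with a striatum marker score as covariate, at 1.54 (adjusted p = 0.0471). In TPM, the median ratio of Ccr2 to Ccr1 was 4.39 in Sham, and at 1 wpi 1.58 with PBS, 1.71 with MSCs and 1.81 with IL-4 MSCs.

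Markers of several other cell types moved with these genes. Of 9 listed monocyte markers, 8 were tested and 7 were called higher with IL-4 MSCs against PBS at 1 wpi, among them Ly6c2 by 3.85 ± 0.45 (adjusted p = 1.11e-07) and Plac8 by 3.04 ± 0.53 (adjusted p = 7.1e-05). Their summed level was 92.9 to 140 CPM in Sham, 152 to 224 CPM with PBS, 214 to 298 CPM with MSCs and 353 to 509 CPM with IL-4 MSCs. It cannot be read as a number of monocytes, since uninjured Sham mice already had at least 92.9 CPM. Of the 5 border macrophage markers 4 were called higher, with sums of 16 to 19.4 CPM in PBS and 125 to 161 CPM in IL-4 MSCs. The paper counts Mrc1 and Cd163 of this list among M2-like genes. More border macrophages and expression of these genes in other macrophages cannot be told apart here, and neither was tested. The 10 resident microglia markers held 1 gene called higher and 1 called lower, and their sums overlapped, at 346 to 468 CPM in PBS and 360 to 452 CPM in IL-4 MSCs. Of the markers shared by macrophages and microglia 6 of 9 were called higher (186 to 256 CPM in PBS and 308 to 419 CPM in IL-4 MSCs), of 10 tested T and NK cell markers 5 were (3.53 to 5.4 CPM and 8.73 to 16.3 CPM), and of the endothelial markers 4 of 4 were (138 to 158 CPM and 211 to 270 CPM). None of these 3 pairs of ranges overlapped. Of 10 stromal cell markers 9 were tested, and 6 were called higher for IL-4 MSCs and 1 for MSCs, both against PBS. Their sums were 12.8 to 14 CPM in Sham, 12.9 to 16.2 CPM with PBS, 15.6 to 20.3 CPM with MSCs and 18.3 to 25.6 CPM with IL-4 MSCs. One of them, Hoxc10, chosen after its values were seen, was at 0 in all 5 Sham and all 5 PBS mice and above 0 in every mouse given MSCs or IL-4 MSCs at 1 wpi. The part of these cell types in the differences was not tested.

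Neutrophil markers were high in the mice that stood apart, and so were some other lists. The sum of the 12 listed genes was 42.4 CPM in mouse 2 of PBS, where the other 4 mice had 22.8 to 28.1 CPM, and 47.5 CPM in mouse 2 of MSCs, where the others had 23.6 to 30.3 CPM. In IL-4 MSCs it was 34.6 to 46.2 CPM and in Sham 14.5 to 23.6 CPM. S100a9, a calcium-binding protein abundant in neutrophils, was picked from this list after its values were seen. It reached 6.08 CPM in PBS and 7.69 CPM in MSCs, with medians of 1.17 and 1.64 CPM. In IL-4 MSCs it was at most 2.23 CPM, though the sum of the list there reached 46.2 CPM. The single gene thus does not stand for the list. Of the 12 genes 9 were tested, and 3 were called higher with IL-4 MSCs against PBS. The monocyte marker sum was the highest of its group in mouse 2 of PBS, at 224 CPM, but not in mouse 2 of MSCs, at 240 CPM. That of markers shared by macrophages and microglia was highest in mouse 2 of MSCs, at 276 CPM, but not in mouse 2 of PBS, at 211.5 CPM. In IL-4 MSC mice Ccl3 was at most 1.46 CPM. The part of neutrophils or of other cells in the levels of Ccl3, Ccl4 and Ccr1 was not tested.

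**Figure D4:**
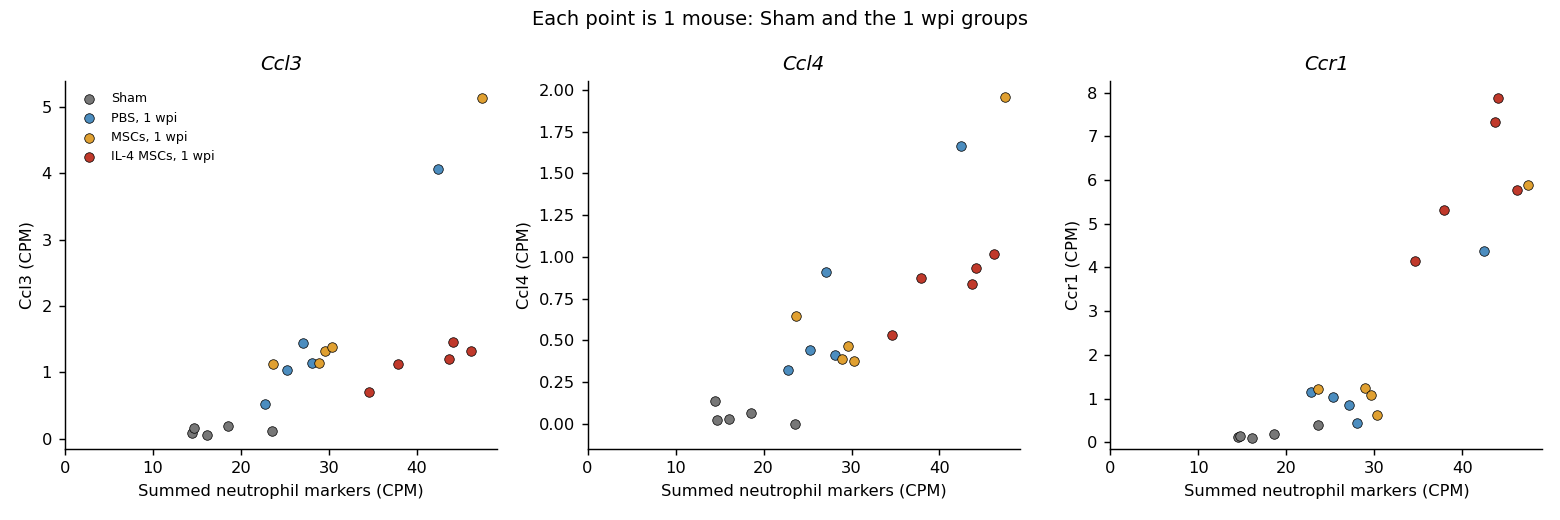
Ccl3, Ccl4 and Ccr1 (CPM) against the summed CPM of 12 neutrophil markers, 1 point per mouse of Sham and the 1 wpi groups. The highest PBS and MSC points, at 42.4 and 47.5 CPM of markers, are the mice with the highest Ccl3, at 4.06 and 5.13 CPM. The IL-4 MSC mice, at 34.6 to 46.2 CPM of markers, had only 0.712 to 1.46 CPM of Ccl3.

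MSCs and PBS were compared to see whether the cells alone changed these genes. At 1 wpi edgeR called 0 of the 10, with 0.123% of all genes called, and 1 gene, Ccl9, had an unadjusted p under 0.05. The log2 differences ran from -0.11 ± 0.32 for Ccl12 to 0.82 ± 0.63 for Ccl8, with adjusted p-values of 0.996 or above. At 3 wpi edgeR again called 0 of the 10, where 0.0817% of all genes were called and 2 of the 10 had an unadjusted p under 0.05. DESeq2 called 0 at 1 wpi and 1 at 3 wpi.

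At 3 wpi most of these genes did not pass edgeR's test against Sham. In PBS edgeR called 0 of the 10 (0.0292% of all genes), with 1 at an unadjusted p under 0.05 and 0 called by DESeq2. In IL-4 MSCs it called 0 (4.27% of all genes), with 3 at an unadjusted p under 0.05 and 1, Ccl3, called by DESeq2. Ccl8 passed with edgeR only without Sham mouse 4, at 3.33 (adjusted p = 0.0276). In MSCs Ccl12 was the 1 gene called by edgeR, where 1.11% of all genes were called higher. Here 6 of the 10 had an unadjusted p under 0.05, and DESeq2 called 3. The values of Ccl12 were as follows. Its 5 mice had 0.511, 0.533, 0.375, 0.719 and 2.90 CPM, so mouse 4 stood above the rest and 1 of the others lay within the Sham range. The log2 difference was 2.21 ± 0.45 (adjusted p = 0.00691) with mouse 4 and 1.29 without it (adjusted p = 0.0749), and against the Sham mice of the same week it was 1.88 (adjusted p = 0.121).

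By level, Ccl9 at 3 wpi was at 2.78 to 3.49 CPM in IL-4 MSCs, across the Sham range, and at 3.244 to 3.64 CPM in PBS, just above the highest Sham mouse at 3.238 CPM. Ccl6 was at 0.957 to 1.84 CPM in PBS and 1.07 to 1.76 CPM in IL-4 MSCs, and both ranges overlapped Sham. Ccr2 was at 1.20 to 1.53 CPM in PBS and 1.30 to 1.68 CPM in IL-4 MSCs, which reached from the upper end of the Sham range upward. Ccl3 was at 0.193 to 0.603 CPM in PBS, 0.230 to 0.479 CPM in MSCs and 0.295 to 0.602 CPM in IL-4 MSCs. Of these mice only the lowest PBS mouse fell within the Sham range. The differences of Ccl3 from Sham did not pass edgeR's test in the fit of all 34 libraries. For IL-4 MSCs Ccl3 passed with DESeq2, with only the 2 groups fitted and with a replicate block. It also passed there without mouse 2 of both PBS and MSCs at 1 wpi. Over the alternative fits its adjusted p ran from 0.0037 to 0.438 for IL-4 MSCs and from 0.0216 to 0.501 for MSCs. Ccl7 had 0 counts in 2 of the 5 IL-4 MSC mice at 3 wpi, and the other 3 lay between 0.0628 and 0.105 CPM.

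Mouse 4 of MSCs at 3 wpi was also the highest of its group for Ccl2, Ccl7, Ccl8, Ccl6, Ccl9, Ccr2 and Ccr1, with 5.37 CPM of Ccl6 against 1.21 to 1.76 CPM in the others. In the same mouse Ccl3 was the lowest of the group, at 0.230 CPM. In this mouse the sums of monocyte, border macrophage and neutrophil markers were the highest of the group, at 207, 27.5 and 42.6 CPM. The group medians were 119, 11.6 and 22.2 CPM. So were those of shared macrophage and microglia, T and NK cell and endothelial markers, at 198.5, 12.9 and 197 CPM, against medians of 127, 9.29 and 156 CPM. The stromal cell sum, at 13.7 CPM, was not the highest. The part of these cell types was not tested.

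Striatum markers were called higher at 3 wpi with IL-4 MSCs, 12 of 13 against PBS, 11 against MSCs and 10 against Sham, and 10 of 13 were higher than with IL-4 MSCs at 1 wpi. With a striatum marker score as covariate edgeR again called 0 of the 10 genes in these 3 comparisons at 3 wpi. The fall from 1 to 3 wpi with IL-4 MSCs was again called in 10 of 10. At 1 wpi IL-4 MSCs again exceeded PBS in 8 of the 10. The striatum sums went largely with the group in all of these comparisons, and the 3 at 3 wpi had 0 calls without the score. These fits therefore cannot separate tissue content from treatment or week.

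Between treatments at 3 wpi, edgeR called 0 of the 10 for IL-4 MSCs against PBS (2.94% of all genes) and 0 for IL-4 MSCs against MSCs (3.47%), with 1 and 4 at an unadjusted p under 0.05 and 1 each called by DESeq2. Ccl8 was the gene that DESeq2 called against PBS. Its IL-4 MSC mice had 0.308, 0.754, 0.0319, 0.161 and 0.367 CPM and its PBS mice 0, 0, 0.0965 and 0.0656 CPM, which overlap. The edgeR difference was 2.81 ± 0.88 (adjusted p = 0.0741), and without IL-4 MSC mouse 2 it was 3.07 (adjusted p = 0.0479).

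From 1 to 3 wpi at least 5 of the 10 genes fell in every treatment group. All 10 were called lower with IL-4 MSCs, 7 with PBS and 5 with MSCs, where 16.6%, 4.90% and 4.93% of all genes were called lower. In IL-4 MSCs the log2 difference was -7.43 ± 0.46 in Ccl7 (adjusted p = 9.86e-14), -6.65 ± 0.38 in Ccl8 (adjusted p = 2.25e-14) and -5.07 ± 0.48 in Ccl2 (adjusted p = 5.99e-10). The difference was -4.40 ± 0.28 in the CCR1 ligand Ccl6 and -3.41 ± 0.14 in Ccl9, and among receptors -5.01 ± 0.68 in Ccr1 and -3.02 ± 0.32 in Ccr2. Ccl3 fell least, by 1.30 ± 0.46 (adjusted p = 0.0272), and did not pass without mouse 1 or 3 at 1 wpi or mouse 2 or 3 at 3 wpi (adjusted p = 0.0527 to 0.0713). In PBS the called genes were Ccl2, Ccl12, Ccl3, Ccl4, Ccr1, Ccl6 and Ccl9, led by Ccl12 with -2.88 ± 0.44 (adjusted p = 5.74e-05), and in MSCs they were Ccl2, Ccl7, Ccl3, Ccl4 and Ccl9, led by Ccl2 with -2.79 ± 0.51 (adjusted p = 0.000509), or -3.39 without mouse 4 at 3 wpi. Leaving out mouse 4 of MSCs at 3 wpi raised the count in MSCs from 5 to 9, and leaving out mouse 2 of PBS at 1 wpi lowered that in PBS from 7 to 4. The fall of Ccr1 in PBS passed in none of the fits that left out 1 PBS mouse of 3 wpi (adjusted p = 0.0578 to 0.152).

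Whether the difference between treatments itself changed from 1 to 3 wpi was tested by an interaction contrast. Against PBS, the IL-4 MSC difference was larger at 1 wpi for 4 of the 10 genes, where 3.93% of all genes were called in this direction: Ccl7 by 6.20 ± 0.88 (adjusted p = 2.8e-05), Ccl6 by 3.21 ± 0.41 (adjusted p = 6.32e-06), Ccl9 by 2.76 ± 0.20 (adjusted p = 8.55e-11) and Ccr2 by 2.13 ± 0.47 (adjusted p = 0.00511). Against MSCs it was larger for 7, namely Ccl7, Ccl12, Ccl8, Ccr2, Ccr1, Ccl6 and Ccl9, where 5.96% of all genes were called. DESeq2 called 6 of the 10 against PBS and 8 against MSCs. Ccr1 did not pass without mouse 4 of MSCs at 3 wpi, where its contrast was 2.32 (adjusted p = 0.179). The contrast of Ccl8 against PBS, 4.81 ± 1.68, did not pass edgeR's test (adjusted p = 0.101), though it did without IL-4 MSC mouse 1 of 3 wpi (adjusted p = 0.0407) and with DESeq2, at 4.73 (adjusted p = 0.00198), and 2 of the 4 PBS mice at 3 wpi had 0 counts of the gene. For MSCs against PBS edgeR called 0 of the 10 (0% of all genes), with 1 at an unadjusted p under 0.05, and DESeq2 called 0.

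Other CC chemokines and Ccr3 give the setting of these genes. Of 13 other chemokines 10 were tested, and 4 were called higher and 0 lower when IL-4 MSCs were set against PBS at 1 wpi, among them Ccl24, an eosinophil chemoattractant, by 6.37 ± 0.28 (adjusted p = 2.04e-16), Ccl11 by 3.81 ± 0.46 (adjusted p = 1.65e-07) and Ccl5 by 2.91 ± 0.35 (adjusted p = 2.21e-07). The median difference of the 10 was 0.55, against 2.27 for the monocyte-attracting genes and -0.0042 for all genes. Ccl11, the gene of eotaxin, lies between Ccl7 and Ccl12. Among other CC receptors Ccr3, the eotaxin receptor gene between Ccr1 and Ccr2, was called higher by 4.43 ± 0.47 (adjusted p = 1.58e-08). Of 9 other genes for growth and guidance of monocytes 8 were tested and 5 were called higher, the largest being Csf2rb by 1.51 ± 0.28 (adjusted p = 0.000194) and Csf2rb2 by 1.42 ± 0.25 (adjusted p = 6.59e-05). Cx3cl1, the neuronal ligand of the microglial receptor CX3CR1, differed by -0.03 ± 0.06 and Cx3cr1 by -0.17 ± 0.07, neither of which was called.

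Across the 34 libraries, which share the treatment groups, Spearman's rho between any 2 of the 10 genes lay between 0.541 for Ccl8 with Ccl3 and 0.908 for Ccl12 with Ccl6. Outside the 10, the genes most like Ccl2 were Glipr2, Ifi207, Gm49339, Ugt1a7c and Cxcl16, with rho of 0.923 to 0.909. Those most like Ccr2 were Wdfy4, Pira2, Arhgap30, Cyth4 and Osmr, with rho of 0.945 to 0.941. Those most like Ccl3 were Tlr2, Ctsd, Abca1, Gpam and Sgpl1, with rho of 0.942 to 0.907.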

How the data were processed

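RNA of 35 mice was sequenced in paired 50-base reads, and values of 34 were analysed here. Per the labels and the study's methods, the authors trimmed reads with cutadapt 2.4, assigned them with kallisto 0.46 to protein-coding GENCODE transcripts (GRCm38) and compared groups with sleuth 0.30 in R 3.6.1, after checks with FastQC 0.11.8. The deposited table holds estimated counts and TPM of 21203 genes per library. Of its columns, 63 hold the authors' own comparisons, with p-values, q-values and log fold changes, and were not used. The authors excluded 1 mouse of the PBS group at 3 wpi.

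Estimated counts were rounded and tested in R 4.3.3 with edgeR 4.0.16 (quasi-likelihood, two-sided, TMM, filterByExpr), in 1 fit of all 34 libraries over 17131 genes, with Benjamini-Hochberg adjustment. It gave 15 comparisons and 3 week-by-treatment contrasts. All 10 genes were tested in every comparison, and not every value is printed. Of the other lists at most 3 called genes with the largest change between IL-4 MSCs and PBS at 1 wpi were to be named, and for Ccl2, Ccr2 and Ccl3 the 5 outside genes with the highest Spearman correlation; Cx3cl1, Cx3cr1, Hoxc10 and S100a9 were named after their values were seen. The genes, lists and tests were chosen with earlier results of these data known. Pandas 2.3.3 and matplotlib 3.10.9 were used for tables and figures.

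A bracketed number in the titles is the same for every mouse of 1 treated group; its meaning is not given in the sources used here, and it cannot be told apart from the group. At these depths 3 counts correspond to 0.0722 to 0.101 CPM, which covers counting error only. Alternatives were RLE normalization, DESeq2 1.42.0, no count filter, fits of only the groups compared, Sham mice of the same week, a replicate block, a striatum marker covariate, leaving out each mouse, and, chosen after seeing the data, leaving out mouse 2 of PBS and of MSCs at 1 wpi. Results of 1 gene of the other lists are not reported here.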

Additional observations from a re-analysis of the deposited data

Results flagged for a closer look

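In groups of 4 or 5 mice, 15 of the 70 gene and group combinations held a mouse beyond Dixon's 95% limit. Its distance from its nearest neighbour took up more of the group's range than this limit. A chance rate of about 1 in 20 would hold only for independent, normally distributed values. The genes were correlated across libraries (Spearman's rho 0.541 to 0.908), and every flagged value was the highest of its group. The count therefore cannot be set against that rate, and the flags only mark values that stood apart. At 1 wpi, mouse 2 of PBS stood high for Ccl3 (4.06 CPM), Ccl7 (0.799 CPM) and Ccr1 (4.38 CPM), and mouse 2 of MSCs for Ccl3 (5.13 CPM), Ccl4 (1.96 CPM) and Ccr1 (5.89 CPM). At 3 wpi, mouse 4 of MSCs stood high for Ccl7 (0.259 CPM), Ccl12 (2.90 CPM), Ccl8 (0.603 CPM), Ccr1 (2.04 CPM), Ccl6 (5.37 CPM) and Ccl9 (6.05 CPM). The remaining values were Ccl2 in mouse 1 of IL-4 MSCs at 3 wpi (0.440 CPM), Ccl8 in mouse 4 of Sham (0.244 CPM) and Ccl9 in mouse 2 of Sham (3.24 CPM).

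By edgeR's interaction test, IL-4 MSCs exceeded PBS by more at 1 than at 3 wpi in Ccl7 (log2 6.20), Ccl6 (3.21), Ccl9 (2.76) and Ccr2 (2.13). They exceeded MSCs by more at 1 wpi in Ccl8 (5.99), Ccl7 (5.16), Ccl6 (3.73), Ccr1 (3.42), Ccl9 (2.73), Ccl12 (2.46) and Ccr2 (2.42). Without mouse 4 of MSCs at 3 wpi these contrasts were 4.67 for Ccl8, 4.47 for Ccl7, 3.12 for Ccl6, 1.55 for Ccl12 and 2.32 for Ccr1 (adjusted p = 0.179 for Ccr1, the others passed), and without mouse 2 of MSCs at 1 wpi that of Ccr1 was 4.39.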

How the results depend on the processing

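Among the differences that the text gives gene by gene, those that were called kept direction and call in 1393 recomputed values, and 30 others kept direction but no longer passed. Of those that were not called, 517 stayed so in the same direction, 29 passed under another setting and 12 changed sign; the cause was not tested. These counts leave out comparisons given only as counts of called genes. Against Sham at 3 wpi, the count for MSCs went from 1 to 0 with Sham mice of the same week or with only the 2 groups fitted, and to 3 with DESeq2 or without mouse 2 of both PBS and MSCs at 1 wpi. The count for IL-4 MSCs went from 0 to 1 with DESeq2, with only the 2 groups fitted, with a replicate block and without those 2 mice. The gene called was Ccl3 each time. DESeq2 called 1 gene in each comparison between treatments at 3 wpi, and with only the 2 groups fitted the fall in MSCs held for 2 genes.

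Leaving out 1 mouse gave 8 to 9 called genes for PBS, 9 to 10 for MSCs and 10 for IL-4 MSCs against Sham at 1 wpi, and 0, 0 to 2 and 0 to 1 at 3 wpi. MSCs against Sham at 3 wpi gave 2 without MSC mouse 2 or 3 and 0 without mouse 4. It gave 8 for IL-4 MSCs against PBS and 7 to 8 against MSCs at 1 wpi, and 0 to 1 in each comparison between treatments at 3 wpi, where 1 was reached without MSC mouse 2 (both comparisons with MSCs) or without IL-4 MSC mouse 1 (against MSCs) or 2 (against PBS). From 1 to 3 wpi it gave 4 to 7 in PBS, 4 to 9 in MSCs and 9 to 10 in IL-4 MSCs, and 4 to 6 and 6 to 8 for the change of the IL-4 MSC difference from PBS and from MSCs.

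Among the differences of the 10 genes counted above, those that changed sign were of Ccl3 and Ccl4 between treatments. Differences that were not called and are given only as counts changed sign in other genes too: Ccl2 of IL-4 MSCs against PBS at 3 wpi ranged from -0.626 to 0.769, and Ccr2 of MSCs against PBS at 1 wpi from -0.114 to 0.512. For IL-4 MSCs against PBS, Ccl3 was 0.13 without mouse 2 of both groups and -0.74 to 0.15 when 1 mouse was left out, and Ccl4 was -0.13 with a striatum marker covariate and -0.049 to 0.654 when 1 mouse was left out. Against MSCs, Ccl4 was -0.08 to 0.831. For the change with the week, Ccl3 against PBS was -0.917 to 0.032, and Ccl4 against MSCs was -0.875 to 0.195 and 0.18 without mouse 2 of both groups. Of the genes of other lists named for IL-4 MSCs against PBS, those called kept direction and call in all 17 alternatives, and the small difference of Cx3cl1, which was not called, lay between -0.055 and 0.009 when 1 mouse was left out and changed sign in 3.

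The replicate numbers of the titles are not stated to pair mice: over 99 pairs with the same number the median correlation of deviations was 0.024, and 6 of 34 libraries correlated best with their own number. With the replicate block the count was 6 for the fall in PBS and 6 for that in MSCs, and Ccr1 of IL-4 MSCs passed against MSCs at 1 wpi, with 1.87 (adjusted p = 0.0109). Low counts of Ccl8, Ccl7, Ccl4 and Ccl2 in Sham and at 3 wpi limit what could be detected there.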
